A study of Mus musculus with 44 samples.

Results

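Methylation was followed at 9 mouse genes that hold some of the largest rises in whole blood DNA after lipopolysaccharide: Uqcrc1, Rad51b, Taok3, Rab31, Slit3, Ccm2l, Rnf220, Tle3 and Scarb1. They were chosen by the measured LPS minus saline difference in blood at 6 h and 12 h, out of 16630 protein-coding genes with at least 3 measured cytosines in blood at 6 h. Each gene was taken from 1000 bp before to 1000 bp after its RefSeq span (build GRCm38, the mm10 coordinates of the data), which gave 1686 of the 1201496 cytosines of the blood table at 6 h. The gaining tile of a gene is the fixed window of 1000 bp, with 3 or more cytosines, whose mean rise over both times was largest. Those blood differences selected the genes and the tiles, so they are described without a test.

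The libraries were reduced representation bisulfite libraries, which sample CpG-dense parts of the genome, from 44 samples of whole blood, hippocampus and frontal cortex. All mice were male wild-type C57BL/6J animals of 8 to 12 weeks that served as a model of Gulf War Illness. Every group, the saline controls included, had received corticosterone (CORT, 200 mg/L in drinking water with 0.6% ethanol, 7 days), diisopropyl fluorophosphate (DFP, a cholinesterase inhibitor, 4 mg/kg on day 8) and further courses of CORT up to 5 weeks. Saline or lipopolysaccharide (LPS, bacterial endotoxin, 0.5 mg/kg under the skin) was given last. Because every saline tissue was collected at 6 h, the later LPS groups differ from saline in time as well as in the injection. Blood had 4 saline libraries and 4, 3 and 3 LPS libraries at 6, 12 and 24 h, hippocampus had 3 and 4, 3 and 4, and cortex had 4 in each group. Whether replicates come from separate animals is not in the labels, and a p-value here covers only the variation among these libraries, part of which may be technical. The data hold no read counts, so the depth behind each percentage is unknown.

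Cytosine methylation in mammals sits mostly on CpG pairs, is set by DNA methyltransferases and is copied at cell division. Promoters rich in CpG are usually unmethylated, while gene bodies are usually methylated. Enhancers inside gene bodies are often unmethylated in the cell types that use them, so the level at such a place differs between cell types, and the level in a tissue is an average over its cells.

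The identity of the saline blood libraries bears on every blood value and comes first. Group means were correlated over 66963 tiles whose cytosines stand in all 9 tables. Saline blood correlated with LPS blood at r = 0.946 at 6 h, 0.940 at 12 h and 0.940 at 24 h. It correlated with saline cortex at 0.944 and with saline hippocampus at 0.937. The LPS blood groups correlated with each other at 0.998, and the 4 saline blood libraries with each other at 0.994. These correlations are across tiles, which are not independent. Genes that mark neutrophils, whose loci are usually unmethylated in that cell type, were lower in LPS blood at 6 h in 10 of 11 tested and higher in 0, where 9.8% of all tested genes were lower and 42.5% higher. The mean level of that list, over 11 genes measured in all 3 tissues, was 66.7 to 68.9% in the saline blood libraries, 46.0 to 50.5% in LPS blood, 71.0 to 72.9% in saline hippocampus and 76.0 to 81.2% in saline cortex. Of 13 tested genes of a general leukocyte list, 7 were lower and 2 higher. Spi1, a transcription factor gene of blood cells, lay at 67.2% ± 2.73 (SD, n = 4) in saline blood and 12.9% ± 4.68 (n = 4) in LPS blood at 6 h. It stood at 60.8% ± 1.51 (n = 4) in saline cortex and 49.1% ± 4.85 (n = 3) in saline hippocampus. Other genes went the other way, such as Fermt3 of the same leukocyte list, at 78.6% in saline blood and 85.9% in LPS blood. Fermt3 lay at 91.9% in saline cortex and 90.4% in saline hippocampus. Saline blood was nearer to saline cortex than to LPS blood at 8 of 11 neutrophil genes, 5 of 12 leukocyte genes and 2 of 10 neuron genes. Over 13 marker lists this held at 53 of 104 genes. For saline hippocampus the counts were 11 of 11 neutrophil, 4 of 12 leukocyte and 2 of 10 neuron genes, and 50 of 104 over all lists. Of 9 tested neuron genes 6 were higher in LPS blood and 0 lower, and the list lay at 28.4 to 29.3% in saline blood, 34.3 to 36.8% in LPS blood and 22.4 to 23.1% in saline hippocampus. Each marker mean is over the cytosines measured in that tissue, and these differ between tissues. Spi1, for example, had 17 in blood, 26 in hippocampus and 28 in cortex. Differences in coverage can therefore enter the marker levels and the counts of nearer genes. The lists thus do not place the saline blood libraries on 1 side. The part of cell makeup in the rises described here was not tested, and for these bulk samples a change in cell makeup and a change within cells cannot be told apart.

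Of the 9 gaining tiles, 7 had nearly the same course in blood: a mean of 20.5 to 25.03% in saline, 84.0 to 91.8% in LPS at 6 h and 90.6 to 94.5% at 12 h. Uqcrc1 began lower, at 8.91%, and Scarb1 higher, at 53.8%. The LPS minus saline difference had a median of 65.1 percentage points over 9 tiles at 6 h (33.8 to 73.8), 70.0 points at 12 h (37.9 to 75.9) and 70.0 points over 8 tiles at 24 h (34.6 to 78.3). All LPS libraries lay above all saline libraries in 9 of 9, 9 of 9 and 8 of 8 tiles. That separation follows in large part from the choice of the tiles. The share of all blood tiles separated in this way is not given here, so these counts are a description. Of all tested tiles, limma called 41.4% at 6 h (29.6% higher, 11.8% lower), 44.5% at 12 h (34.6% higher, 9.95% lower) and 42.5% at 24 h (31.1% higher, 11.3% lower). Nothing about the genes is read from those shares, since the blood rise chose them. The comparisons at the 3 times share their saline libraries. Within the LPS 6 h group, replicate 2 was the lowest library in 9 of 9 tiles.

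**Figure D1:**
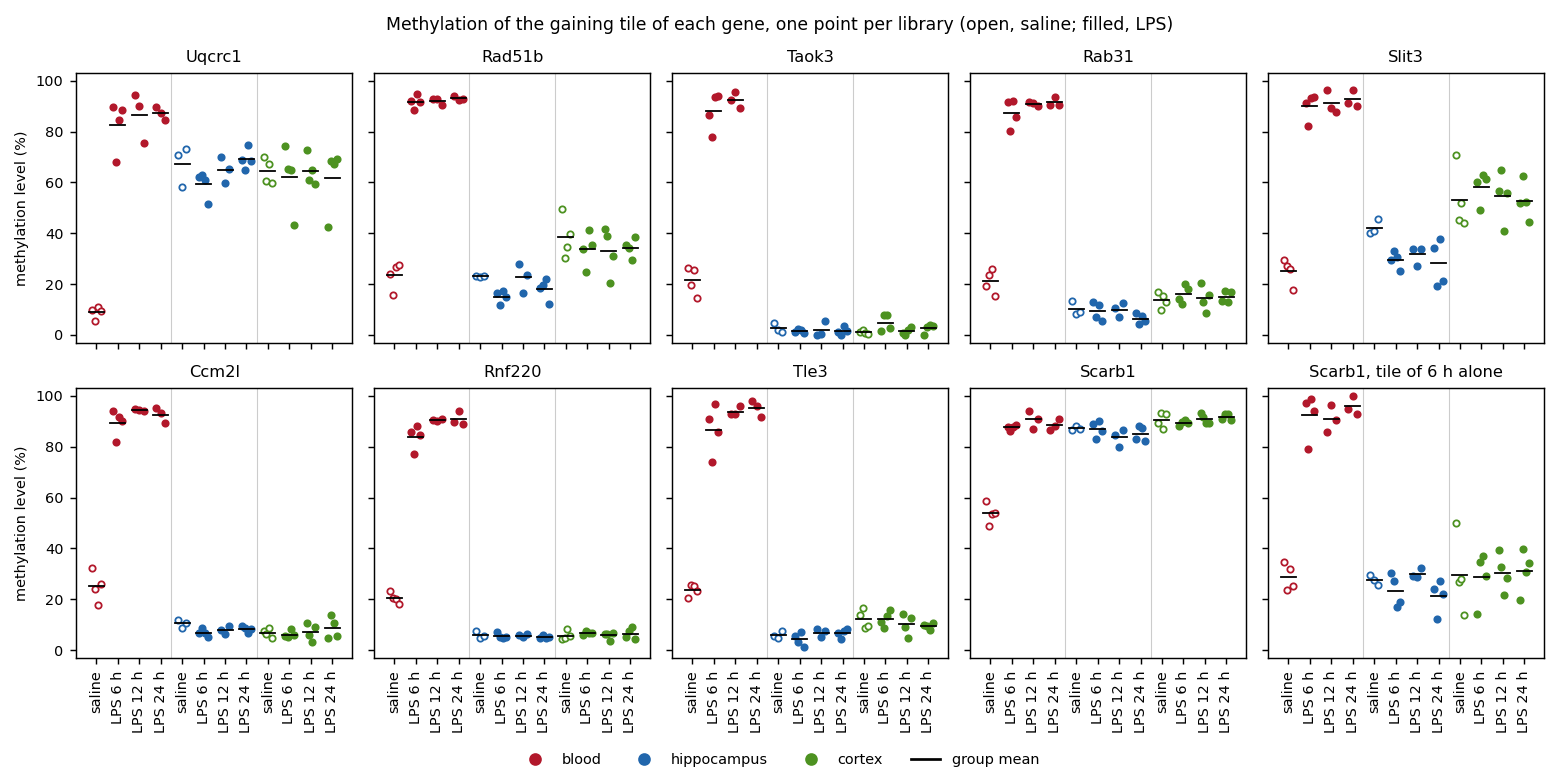
Methylation level (percent, vertical axis) of each gaining tile in each library of the 12 groups (horizontal axis); open points are saline, filled points LPS, black bars group means, and colours the 3 tissues. In blood all LPS points lie above the saline points. In brain the tiles of Taok3, Rnf220, Ccm2l, Tle3 and Rab31 stay under 21%. The gaining tile of Scarb1 stays above 80% in brain, while the Scarb1 tile of 6 h alone does not.

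The question put to the brain was whether a tile that gains in blood is high or low there. In saline hippocampus 5 of the 9 tiles lay under 20%, 3 between 20 and 80% and 1 at 80% or more, and the same counts held in saline cortex. The order from low to high in hippocampus was Taok3, Rnf220, Tle3, Rab31, Ccm2l, Rad51b, Slit3, Uqcrc1 and Scarb1. Rnf220 and Tle3 (5.93 and 5.97%), and Rab31 and Ccm2l (10.2 and 10.5%), are neighbours in that order whose libraries overlap. Both brain regions were nearer to saline blood than to LPS blood at 7 of 9 tiles, and nearer to LPS blood at Uqcrc1 and Scarb1. The side was the same for all 9 tiles over only those cytosines shared by blood, hippocampus and cortex. All saline hippocampus libraries lay below all saline blood libraries at 5 tiles (Taok3, Rab31, Ccm2l, Rnf220 and Tle3), and above them at 3 (Uqcrc1, Slit3 and Scarb1). In saline cortex 4 tiles lay below, 4 above and 1 overlapped. Saline blood took part in the choice of the tiles. The share of all tiles that lie nearer to saline blood, or separate in this way, was not computed, so these counts are a description.

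Uqcrc1 encodes a core subunit of complex III of the mitochondrial respiratory chain. Its gaining tile (chr9:108949000-108949999) reaches past the gene's upper end at position 108949641, but its 7 cytosines in blood lie in the 74 bases from 108949464 to 108949537, inside the span and near its 3′ end. The RefSeq table used gives no exons, so whether this or any other tile is exonic or intronic is not given here. The saline blood libraries stood at 9.71, 5.53, 10.97 and 9.45% and the LPS 6 h libraries at 89.7, 68.1, 84.5 and 88.6%. At 12 h only 3 of these cytosines were measured in blood. Over those 3, saline blood stood at 10.6% ± 6.30 (SD, n = 4) and the LPS 12 h libraries at 94.3, 89.9 and 75.4%. The 3 LPS libraries at 24 h stood at 89.7, 87.4 and 84.6%. Saline hippocampus had 70.9, 58.2 and 73.2%, and saline cortex 70.0, 60.7, 67.5 and 59.6%. Uqcrc1 is therefore the gene of the 9 with the lowest level in saline blood, and in both brain regions all saline libraries were above all saline blood libraries and below 3 of the 4 LPS 6 h libraries. The other tile of the gene, at its 5′ end, moved from 17.1 to 21.5% in blood and was at 0.718% in saline hippocampus and 2.16% in saline cortex.

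Scarb1 encodes the scavenger receptor SR-BI, which takes up cholesteryl esters from high-density lipoprotein. The tile with its largest mean rise over 6 h and 12 h (chr5:125291000-125291999, 5 cytosines) went from 58.8, 48.8, 53.4 and 54.1% in saline to 87.8, 86.2, 87.7 and 88.7% in LPS at 6 h. That difference, 33.8 points, ranked 4375 among 100388 tiles at 6 h, so the tile is far less extreme than those of the other genes. Its levels in saline hippocampus (86.6, 88.3 and 87.0%) and saline cortex (89.4, 93.3, 87.0 and 93.1%) overlapped those of LPS blood. At 6 h alone the largest rise in Scarb1 was in another tile (chr5:125319000-125319999), which had only 3 cytosines and fewer than 3 in the later blood tables. There the saline libraries stood at 34.5, 23.5, 31.8 and 25.2% and the LPS 6 h libraries at 97.3, 79.2, 98.9 and 93.9%. In brain that tile, chosen after its values were seen, stood at 27.5% ± 2.02 (SD, n = 3) in saline hippocampus and 29.6% ± 15.03 (n = 4) in saline cortex over 6 cytosines. Over the 3 of these that were also measured in blood, the levels were 11.9 and 16.0%. Both values lie far below the level of the other Scarb1 tile in brain.

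Rad51b encodes a protein that acts in DNA repair by homologous recombination. Its tile (chr12:79489000-79489999, 6 cytosines) lies inside the gene, 34.9% of the way along the span from the 5′ end. Blood had 24.0, 15.7, 26.8 and 27.6% in saline and 92.1, 88.7, 94.8 and 91.7% in LPS at 6 h. Saline hippocampus had 23.1, 22.8 and 23.3%, a spread of 0.230 (SD) that lay within the range of saline blood. Saline cortex was higher and wider, at 49.6, 30.4, 34.4 and 39.7%. Of the 14 other tiles of this long gene, 4 were higher by 20 points or more in LPS blood at 6 h, by up to 37.8 points, and 2 were lower by as much. The larger of those falls was in a tile of 7 cytosines (chr12:79642000-79642999), from 54.9 to 23.8%.

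Slit3 encodes a secreted ligand of ROBO receptors, known for guiding axons and migrating cells. Its tile (chr11:35475000-35475999, 5 cytosines, 60.3% along the span) had 29.4, 27.3, 25.8 and 17.6% in saline blood and 91.5, 82.2, 93.1 and 93.7% in LPS blood at 6 h. Brain was intermediate: saline hippocampus stood at 40.1, 40.9 and 45.5% and saline cortex at 71.0, 45.3, 52.1 and 43.9%. In hippocampus the levels after LPS were 29.5, 33.2, 30.6 and 25.2% at 6 h, all below saline, and 34.0, 27.0 and 34.0% at 12 h. Single cytosines of the tile ranged from 12.6 to 59.0% in saline hippocampus, against 19.7 to 32.0% in saline blood.

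Taok3 encodes a kinase of the STE20 family that acts upstream of stress-activated MAP kinases. Its tile (chr5:117240000-117240999) rests on 3 cytosines, and the blood table at 24 h holds none of them. Saline blood had 26.4, 19.8, 25.4 and 14.7%, LPS blood 86.7, 77.8, 93.7 and 94.1% at 6 h and 92.5, 95.7 and 89.5% at 12 h. In both brain regions the tile was nearly unmethylated, with group means from 1.10 to 4.89%. The next tile (16 cytosines) moved with it, from 47.7 to 88.8% in blood, and was at 5.01% in saline hippocampus and 3.44% in saline cortex.

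Ccm2l encodes a protein related to CCM2, part of a signalling complex that governs the junctions of endothelial cells. Its tile (chr2:153071000-153071999) holds 46 cytosines, so a single odd cytosine weighs little. Saline blood had 32.4, 23.9, 17.8 and 26.1%, and LPS blood 94.2, 81.7, 91.7 and 90.2% at 6 h and 94.9, 94.4 and 94.1% at 12 h. All 46 cytosines were higher in LPS, by 50.8 to 73.5 points. The neighbouring tile (21 cytosines) went from 22.2 to 83.2%, and no other tile of the gene was measured. The mean over all 67 cytosines of the gene accordingly moved from 24.1% ± 4.98 (n = 4) to 87.5% ± 7.60 (n = 4). In saline hippocampus the gaining tile was at 11.9, 8.77 and 10.8%, and in saline cortex at 7.67, 6.38, 8.63 and 4.87%.

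Rab31 encodes a small GTPase of vesicle traffic between the trans-Golgi network and endosomes. Its tile (chr17:65702000-65702999, 8 cytosines) went from 19.3, 23.6, 25.9 and 15.5% in saline blood to 91.6, 80.1, 92.2 and 85.6% in LPS blood at 6 h. Saline hippocampus had 13.3, 8.37 and 9.03%, and saline cortex 17.0, 9.83, 15.2 and 13.1%. None of the 12 other Rab31 tiles was higher by 20 points or more in LPS blood at 6 h, and 1 was lower by as much.

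Rnf220 encodes a RING-type E3 ubiquitin ligase. Its tile (chr4:117304000-117304999, 52 cytosines in blood) also overlaps Gm12843, a non-coding gene, and the data cannot tell to which of the genes it belongs. Saline blood had 23.3, 20.4, 20.2 and 18.0%, and LPS blood 85.8, 77.3, 88.1 and 84.7% at 6 h. All 52 cytosines were higher in LPS, by 45.2 to 74.5 points. Brain was close to unmethylated, with group means of 5.20 to 6.79% over both regions and all times. Of the 36 other tiles of the gene, 10 were higher by 20 points or more in LPS blood at 6 h and 2 were lower by as much.

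Tle3 encodes a Groucho-type corepressor that joins DNA-bound transcription factors. Its tile (chr9:61405000-61405999, 9 cytosines in blood and up to 14 in brain) had 20.5, 25.5, 25.2 and 23.2% in saline blood. LPS blood had 90.8, 73.9, 96.8 and 85.6% at 6 h, a wide spread (SD 9.74), and 92.8, 92.9 and 95.9% at 12 h. Saline hippocampus stood at 5.72, 4.75 and 7.43% and saline cortex at 13.7, 16.4, 8.75 and 9.42%. The tile that begins 2 kb further on was methylated in every tissue, at 97.6% in saline blood, 96.5% in LPS blood, 97.6% in saline hippocampus and 97.2% in saline cortex.

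**Figure D2:**
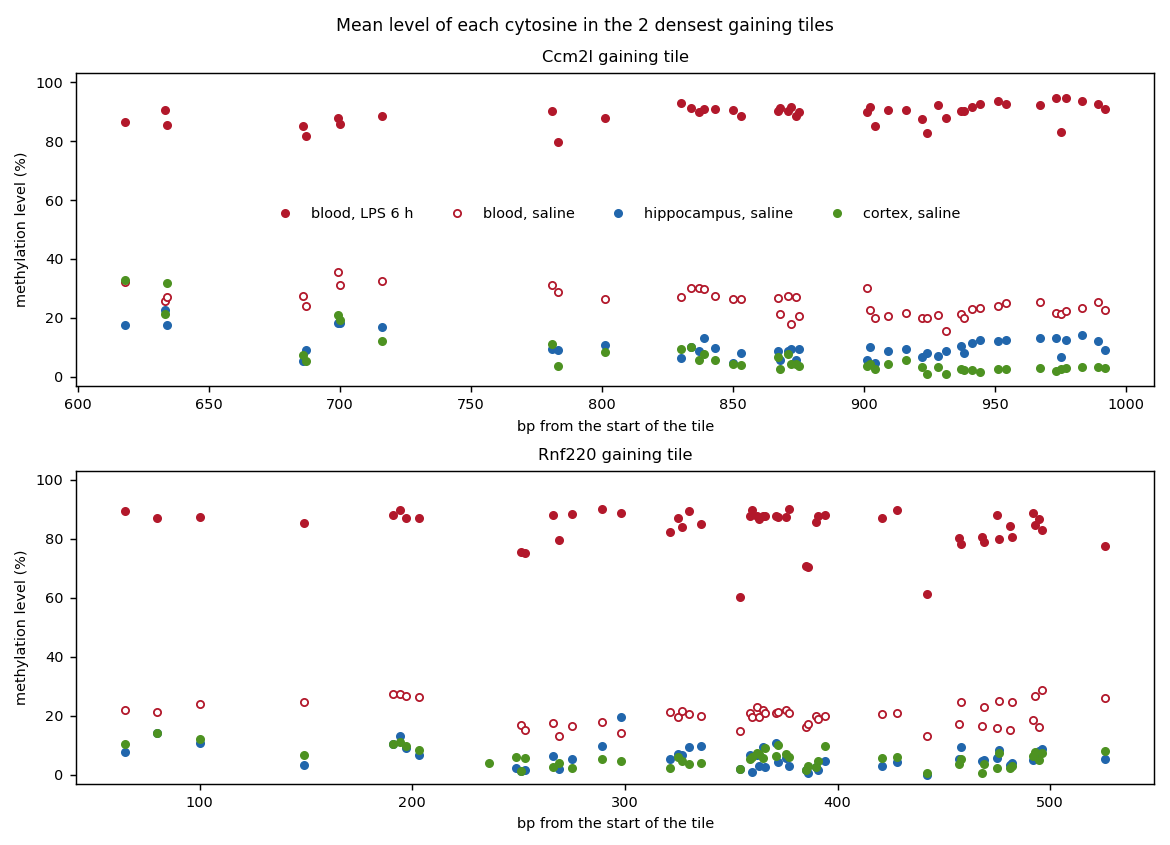
Mean level (percent, vertical axis) of each cytosine in the gaining tiles of Ccm2l and Rnf220 by its distance in bp from the start of the tile (horizontal axis); colours and filling mark saline blood, LPS 6 h blood, saline hippocampus and saline cortex. Every cytosine measured in blood is higher in LPS than in saline, between 79.7 and 94.7% in Ccm2l and between 60.1 and 90.3% in Rnf220.

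Most other tiles of the genes differed less. Besides the gaining tiles the 9 genes held 145 tiles with 3 or more cytosines in blood at 6 h, with a median difference of 2.06 points. Of these, 27 (18.6%) were higher by at least 20 points, where 9.26% of all tiles were. Another 6 (4.14%) were lower by as much, where 3.15% of all tiles were. The 27 include the Scarb1 tile of 6 h alone (63.6 points) and neighbours of gaining tiles, as in Ccm2l (61.0 points), and 10 lie in Rnf220. The genes were chosen by their blood rises, so the share is a description. As a mean over all its cytosines each gene was higher in LPS blood, from 36.9 to 40.1% in Rab31 up to the change in Ccm2l given above.

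**Figure D3:**
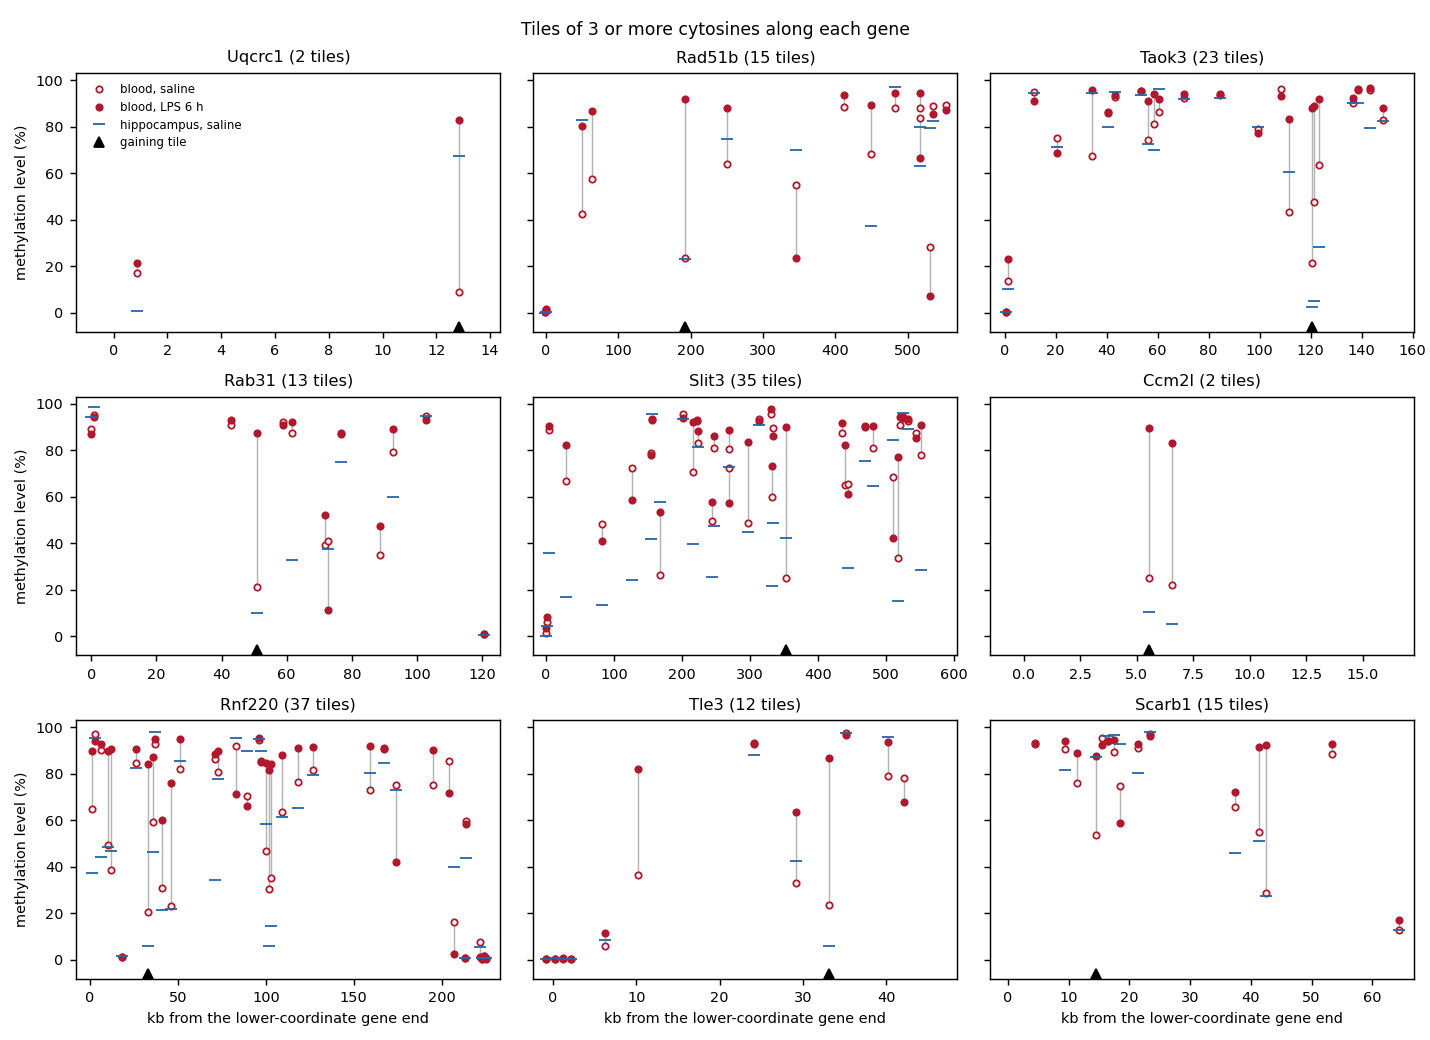
Methylation level (percent, vertical axis) of each tile with 3 or more cytosines by its distance in kb from the lower-coordinate end of the gene (horizontal axis); open points are saline blood, filled points LPS blood at 6 h, joined by a line, dashes saline hippocampus, and the triangle marks the gaining tile. Long lines stand beside tiles with little change, for example in Tle3, where the tile 2 kb further on stays above 96% in blood.

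None of the gaining tiles overlapped a promoter window of the RefSeq promoter table, which holds 7 of the 9 genes (not Ccm2l and Scarb1). Cytosines in the 250 bases upstream of the start were measured for Rab31 and Slit3 only. These sequences are shown as the unmethylated counterpart of the gaining tiles. Each is written 5′ to 3′ on the gene's strand, from RefSeq (GRCm38.p6), and the CG pairs in capitals are those with a cytosine measured in blood at 6 h. The first is chr17:65772753-65773002 on the minus strand, the other chr11:35121206-35121455 on the plus strand.
Rab31: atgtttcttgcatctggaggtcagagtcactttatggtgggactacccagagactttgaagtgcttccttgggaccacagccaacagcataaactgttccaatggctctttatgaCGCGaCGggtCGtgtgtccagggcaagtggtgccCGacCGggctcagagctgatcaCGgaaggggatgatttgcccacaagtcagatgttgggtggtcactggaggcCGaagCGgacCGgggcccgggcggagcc
Slit3: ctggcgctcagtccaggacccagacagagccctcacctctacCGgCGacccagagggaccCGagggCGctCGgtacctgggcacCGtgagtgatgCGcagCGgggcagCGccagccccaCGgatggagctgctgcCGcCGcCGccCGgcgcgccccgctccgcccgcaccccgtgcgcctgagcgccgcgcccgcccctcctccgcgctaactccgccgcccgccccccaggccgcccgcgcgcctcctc
Of the 12 CG pairs upstream of Rab31, 10 were measured, and of the 35 upstream of Slit3, 14 were. Rab31 stayed between 0.410 and 1.10% (group means) in all 12 groups, with no library above 1.74%. Slit3 lay at 0.852% ± 0.287 (n = 4) in saline blood and 1.85% ± 0.236 (n = 4) in LPS blood at 6 h, and no library of any tissue was above 3.88%. Beside the rises of 66.3 points in the Rab31 tile and 65.1 points in the Slit3 tile, both promoters were almost unmethylated before and after LPS.

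Across brain groups, LPS was compared with saline by limma on all tiles with a mean of 5 to 95%, at an adjusted p under 0.05 (Benjamini-Hochberg over all tiles) and a difference of at least 5 points. That left 8 of the 9 gaining tiles, because Taok3 lay under 5% in brain. In no brain comparison was a gaining tile called, nor was any other of 56970 to 80486 tiles (0% called). At an unadjusted p under 0.05, 3 gaining tiles passed in hippocampus at 6 h (18.0% of all tiles did), 0 at 12 h (3.65%) and 1 at 24 h (9.20%), and 0 in cortex at any time (2.98, 2.98 and 3.25%). The lowest adjusted p in hippocampus at 6 h was 0.121, and the 2 largest differences there were in Slit3 (-12.6 points, 42.2 to 29.6%) and Uqcrc1 (-8.04 points, 67.4 to 59.4%). Rad51b differed by -7.93 points (SE 2.05; limma, adjusted p = 0.121), with 4 of 4 LPS libraries below all saline libraries.

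All 8 tested tiles had a lower mean in LPS hippocampus at 6 h, with a median of -2.71 points, and the median over all tested tiles was -2.69 points. LPS libraries lay wholly below saline in 3 tiles at 6 h (Rad51b, Slit3 and Ccm2l), where 16.2% of all tiles did so. The counts were 2 at 12 h (Slit3 and Scarb1; 6.32% of all tiles) and 3 at 24 h (Rad51b, Rab31 and Slit3; 8.23%). These comparisons share the 3 saline libraries. No tile lay wholly above saline at any time (0.74, 2.04 and 1.14% of all tiles did). In cortex the groups overlapped at all 9 tiles at all 3 times, where 0.834, 1.05 and 0.639% of all tiles lay wholly below and 1.04, 0.785 and 1.36% wholly above, and the tested tiles differed by between -5.49 and 5.24 points. The rise of blood, 63.2 points or more at each tile other than Scarb1 at 6 h, thus had no counterpart of its size in either brain region. For Scarb1 the blood difference depends on where the tile begins: on a grid moved by 500 bp it was 17.3 points at 6 h, 17.9 at 12 h and 20.8 at 24 h, against 33.8, 37.9 and 34.6.

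Taken over whole genes, limma at the same adjusted p called 0 of 9 in each of the 6 brain comparisons. In hippocampus at 6 h the background was 6.46% of 11153 genes (6.45% lower, 0.0179% higher), and in the other 5 comparisons 0%. The genes there differed by -5.79 to -0.274 points. Rad51b had the lowest adjusted p, 0.0551, with 53.7% ± 0.965 (n = 3) in saline and 47.9% ± 2.50 (n = 4) in LPS. Counting only genes with 10 or more cytosines brought that value to 0.0408, which passed. Without the mean-variance trend in limma Scarb1 passed instead (-2.83 points; adjusted p = 0.0485, against 0.0876 with the trend). At an unadjusted limma p under 0.05, Rad51b, Rnf220, Slit3, Scarb1, Rab31 and Taok3 passed in hippocampus at 6 h (0.00442 to 0.0445). Of all genes 31.2% did so there. Scarb1 also passed in hippocampus at 24 h (limma, unadjusted p = 0.0464), where 10.2% of all genes did. In the remaining comparisons none of the 9 genes passed. Over the 5 comparisons other than hippocampus at 6 h, 1.45 to 10.2% of all genes passed.

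Hippocampus and cortex were then compared in saline, a contrast the choice of tiles did not use. Rad51b was lower in hippocampus, 23.1% against 38.5%, a difference of -15.5 points (SE 4.19; limma, adjusted p = 0.0306), where 11.8% of all tiles were called, 8.39% lower and 3.4% higher. All 3 hippocampus libraries lay below all 4 cortex libraries. That call was lost when any 1 of the hippocampus libraries was left out (adjusted p 0.0904 to 0.0991), without cortex replicate 4 (0.0584) and with no limit on the mean level (0.123). The other 7 tested tiles were not called. Slit3 differed by -15.1 points (37.95% in hippocampus, 53.1% in cortex over 4 shared cytosines; adjusted p = 0.126) and Tle3 by -6.08 points (adjusted p = 0.0851). Uqcrc1 stood 6.72 points higher in hippocampus (SE 4.97; adjusted p = 0.460).

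LPS blood at 24 h, whose libraries did not choose the tiles, was set against LPS brain at 24 h. The tiles were picked for being high in LPS blood at earlier times, with which LPS blood at 24 h correlated at r = 0.998. A higher blood level thus follows in large part from the choice, and the calls are not an independent test of it. Of 8 measured tiles 7 were called higher in blood than in hippocampus, where 52.6% of all tiles were called (37.9% higher, 14.7% lower). Against cortex 7 were called higher as well, where 49.1% of all tiles were called (31.6% higher, 17.4% lower). The median difference was 79.7 points from hippocampus and 67.6 points from cortex. Uqcrc1, though high in brain, was still higher in blood, by 18.0 points from hippocampus (SE 3.20; limma, adjusted p = 0.000444) and by 25.1 points from cortex (SE 5.82; adjusted p = 0.00276). Scarb1 was not called, at 88.4% in blood and 85.2% in hippocampus (3.21 points, SE 2.37; adjusted p = 0.280). Against cortex it stood at 88.7 and 91.8% (-3.03 points, SE 1.79; adjusted p = 0.181), and after centring each library on its overall mean it was called lower in blood, by -5.06 points (adjusted p = 0.0171).

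Tiles with rises like these were placed by their level in saline hippocampus over the cytosines common to all tables. Of 66963 tiles, 39.1% were under 20% in saline hippocampus and 36.1% were at 80% or more. Among the 885 tiles that were higher by 50 points or more in blood (mean of 6 h and 12 h), 29.4% were under 20% and 9.27% at 80% or more. Among the 132 that were higher by 60 points or more, the shares were 52.3% and 3.03%, and in saline cortex 43.9% and 3.03%. A rise that large needs a low level in saline blood, whose libraries correlated with brain as given above, so the shares are a description. The gaining tiles of Uqcrc1 and Scarb1 stand apart from those of the other 7 genes in that plane. Uqcrc1 had a rise of 73.8 points in blood at 6 h and 67.4% in saline hippocampus, and Scarb1 33.8 points and 87.3%. The same does not hold for the Scarb1 tile of 6 h alone, with 63.6 points and 27.5% (11.9% over shared cytosines).

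**Figure D4:**
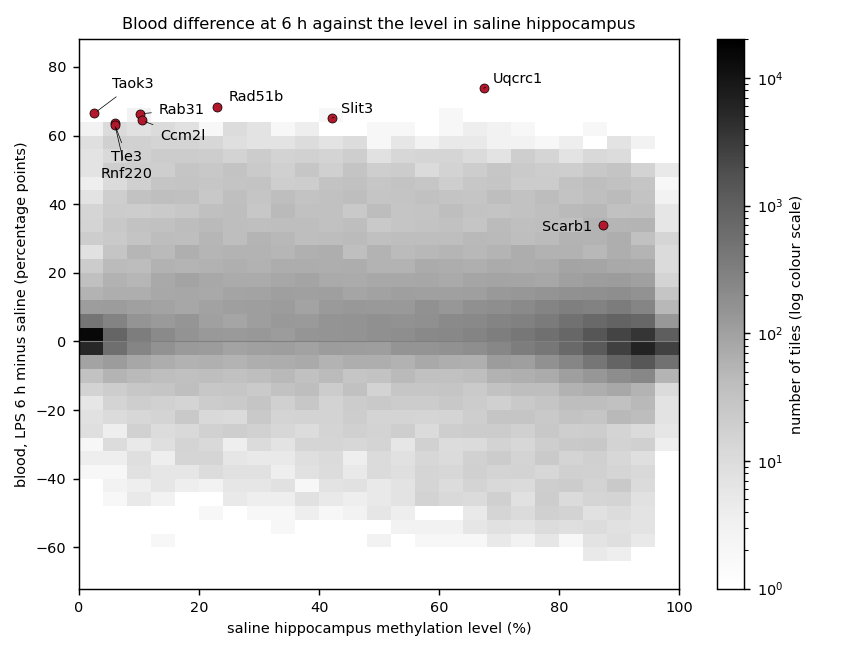
LPS 6 h minus saline difference in blood (percentage points, vertical axis) against the level in saline hippocampus (percent, horizontal axis) for 85810 tiles, as grey cells on a log colour scale of the number of tiles, with the gaining tiles as red points. The 8 tiles other than Scarb1 lie above 63 points, 5 of them under 20% in hippocampus, and Scarb1 lies at 33.8 points and 87.3%. The Scarb1 tile of 6 h alone is not drawn.

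Among 32324 tiles inside other genes, the 5 whose levels over the 12 groups were nearest to the mean of the gaining tiles lay in Mfsd12, H13, Pkp3, Banp and S1pr2. Likeness was the mean absolute difference over the 12 group means, which was 1.997 points for Mfsd12 (chr10:81364000-81364999, 42 cytosines) and 2.73 points for S1pr2 (chr9:20972000-20972999, 5 cytosines). The Mfsd12 tile went from 31.1% in saline blood to 87.1, 94.9 and 94.0% in LPS blood at 6, 12 and 24 h, with 28.1% in saline hippocampus and 31.8% in saline cortex. The mean of the gaining tiles was 28.3% in saline hippocampus and 31.8% in saline cortex, but their medians were 10.5 and 13.8%. In each region 5 of the 9 lay under 20%, so a tile near the mean is unlike most single gaining tiles in brain.

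The families of the 9 genes were looked at as whole genes in blood, from lists of 50 relatives. At 6 h 46 of them had 3 or more cytosines and 32 lay in the tested range of 5 to 95%. In limma 9 were called higher and 5 lower, and 18 were not called, where 52.3% of all genes were called (42.5% higher, 9.8% lower). The median difference over the 32 was 0.44 points. The split depends on the overall rise of blood methylation: with each library centred on its own mean, 5 were higher and 15 lower. At 12 h 10 of 27 were higher and 3 lower (4 and 14 after centring), where 56% of all genes were called (48.1% higher, 7.95% lower). At 24 h 6 of 30 were higher and 4 lower (3 and 13 after centring), where 49.7% were called (40.9% higher, 8.87% lower).

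By family at 6 h, 7 of the 8 partners of Uqcrc1 in complex III were measured, and none of the 7 lay in the tested range. Among 5 tested relatives of Rad51b, Rad51d (16.5 to 19.8%) and Xrcc2 were higher and Rad51c (96.9 to 93.0%, -3.91 points; limma, adjusted p = 0.0344) was lower. Of the 6 SLIT and ROBO genes, Slit1, another ROBO ligand (37.0 to 42.3%), and the receptors Robo3 (22.8 to 26.8%) and Robo1 were higher at 6 h, and 3 were not called. At 24 h Robo1 was not called (2.77 points, adjusted p = 0.0526 in limma). Robo4, an endothelial ROBO receptor, was lower at 24 h (75.8 to 57.5%, -18.3 points, SE 2.11, adjusted p = 0.000239 in limma). At 6 h and 12 h Robo4 was not called and differed by -5.19 and 4.91 points. Those values rest on 13 cytosines with saline means of 66.2 and 64.0%. The 24 h value rests on 10 cytosines, so the 3 values are not a course over time. Among the kinases near Taok3, Stk4, the Hippo kinase MST1, was lower (43.0 to 33.0%, -9.95 points, SE 0.788; adjusted p = 1.68e-05). Map4k4 differed by 1.33 points as deposited and by -0.585 points, not called, after centring. Rab5c, a relative of Rab31 on early endosomes, was lower (16.8 to 13.0%), and 3 other RAB5-type genes were not called.

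No tested member of the CCM complex list was called (2 tested). Of 3 tested Groucho genes Tle2 was higher (56.3 to 61.7%). In the lipoprotein list of Scarb1 the largest called change at 6 h was in Lcat, the plasma enzyme that esterifies cholesterol on lipoproteins (75.2 to 90.1%, 14.9 points, SE 2.49; limma, adjusted p = 0.00103). Lipc, hepatic lipase, was lower (83.1 to 76.0%) and Abcg1, a cholesterol exporter, was 1.999 points higher. Fewer relatives were called higher after centring, and the centred values of Xrcc2, Robo1 and Abcg1 are not given here. Their small differences are therefore not told apart from the overall rise of blood methylation. Usp7, a deubiquitinase listed with Rnf220, was lower by a small amount (20.2 to 19.2%; adjusted p = 0.0278). The calls of Rad51c and Usp7 were lost when a single library was left out (highest adjusted p 0.0813 and 0.0800), for both genes with saline replicate 1, 2 or 3 and for Usp7 also with LPS 6 h replicate 2 or 4.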

How the data were processed

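Percent methylation (0 to 100) of single cytosines was deposited by the authors in 9 tables, each with the saline and LPS libraries of a tissue at a given time. Per the submitters' processing notes, the build was GRCm38/mm10 and the tools included Bismark with Bowtie2, methylKit, SAMtools, Trim Galore and FastQC. No label or header names their versions, settings or coverage minimum. Levels were averaged over tiles of 1000 bp (at least 3 cytosines) and over genes with 1000 bp on each side. Each contrast was a 2-group limma fit (version 3.58.1, R 4.3.3) with a mean-variance trend, run on features with a mean of 5 to 95% and tested on simulated data first. P-values were two-sided and adjusted by Benjamini-Hochberg over every tile or gene. A tile needed an adjusted p below 0.05 plus a difference of 5 points, a gene the adjusted p alone. Saline levels are those of the 6 h tables unless a contrast uses another, because the 3 tables of a tissue hold partly different cytosines. Relatives named with values are the 2 largest called changes of each list at 6 h; Xrcc2, Robo1, Robo4 and Abcg1 were named after their values were seen, as were Spi1, Fermt3 and the tiles beside the gaining tiles. The genes, lists and tests were chosen with earlier results of these data known. Alternatives were another grid, more cytosines, no limit on the mean, a logit scale, no trend, centred libraries, a replicate block and dropping each library. The levels over shared cytosines and the counts of marker genes nearer to cortex or hippocampus were added after seeing the data.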

Additional observations from a re-analysis of the deposited data

Results flagged for a closer look

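In groups of 4 libraries 1 library stood far from the other 3 in 4 of 80 groups tested over the gaining tiles and the second Scarb1 tile, and chance gives about 1 in 20 such groups. In the Uqcrc1 tile these were hippocampus LPS 6 h replicate 4, at 51.6%, and cortex LPS 24 h replicate 1, at 42.4%. In the Rnf220 tile they were hippocampus LPS 24 h replicate 2, at 6.01%, and cortex LPS 12 h replicate 3, at 3.62%. At 6 h the Taok3 tile moved in opposite directions in the brain regions, by -0.998 points in hippocampus and 3.80 points in cortex, with every LPS library on its side of the saline mean; the difference between the regions was not tested, and both levels are below 5%.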

How the results depend on the processing

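Leaving out each library in turn gave a median blood difference of 64.1 to 67.7 points at 6 h, 69.3 to 70.1 at 12 h and 69.0 to 70.4 at 24 h. Centring each library lowered the 12 h median to 67.5 points. On the grid moved by 500 bp the Scarb1 difference at 6 h was 17.3 points. The count of tiles called between saline hippocampus and cortex, 1, went to 0 with no limit on the mean, and ranged from 0 to 1 over the left-out libraries. No brain comparison of LPS with saline gave a called gaining tile under any alternative, and whole genes gave 1 in hippocampus at 6 h with 10 or more cytosines and 1 with no trend, as above. Relatives called lower in blood at 6 h ranged from 3 to 5 over the left-out libraries. With centred libraries the relatives called higher numbered 5, 4 and 3 at the successive times and those called lower 15, 14 and 13, and Map4k4 turned to -0.585 points. The Scarb1 tile of 6 h alone, an alternative chosen after seeing the data, was not called in any brain comparison of LPS with saline; with 2 cytosines in blood at 24 h it could not enter the contrast of blood with brain. Same-numbered libraries did not deviate together in every pair (correlations from -0.169 to 0.196), so the numbers were not taken as pairs; with a replicate block the calls were 1 tile between brain regions in saline, 7 and 7 between blood and brain, and 0 in the other brain comparisons, and Usp7 lost its call (adjusted p = 0.0555 in limma). The depth behind each percentage is unknown, so tiles of 3 cytosines such as that of Taok3 carry an unknown counting error.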
